A study of Schizosaccharomyces pombe with 3 samples.

Results

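The 10 genes described here belong to the iron circuitry of fission yeast, Schizosaccharomyces pombe: the regulators fep1, php4, php2, php3 and php5, and the iron-handling or iron-using genes pcl1, isa1, aco1, sdh4 and atm1. They were chosen by gene name, with earlier results of these data known. The DNA array carries, for most genes, a feature for the region upstream of the gene and a feature for its coding sequence. The 10 genes held 20 of the 10213 features, 10 upstream and 10 coding. On the array fep1 stands under its older symbol gaf2, and php4, pcl1, isa1, aco1, atm1 and the coding feature of sdh4 stand under systematic names; the symbol of sdh4 in the RefSeq annotation is tim18.

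The study mapped the chromatin association of Ssn6, a corepressor subunit, by chromatin immunoprecipitation on 2-colour arrays. Per the labels, all 3 arrays hold 1 group: cells with Ssn6 fused to green fluorescent protein, grown to mid log phase in the rich medium YES, with DNA precipitated by an antibody to the tag hybridised beside input DNA from 3 separate experiments. The arrays are named here by the slide numbers 1, 2 and 10 that were read from their titles. No untagged strain, no mock precipitation and no iron-starved culture was analysed here, so each ratio has only the input of its own array as its reference.

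Fep1 is a GATA-type factor that represses iron-uptake genes when iron is plentiful, and it is known to bind the corepressors Tup11 and Tup12, the partners of Ssn6. Php2, Php3 and Php5 form the CCAAT-binding complex that activates many genes of respiration and iron use, and Php4 joins that complex when iron is scarce and turns it into a repressor. The php4 gene is itself a target of Fep1, and pcl1, isa1 and sdh4 are known targets of Php4.

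The upstream sequences below belong to the 4 genes whose upstream feature gave a ratio on all 3 slides, and they show where the letters of the Fep1 and CCAAT-complex motifs lie. Each is the 250 bases before the annotated start of the gene in the RefSeq annotation of build ASM294v3, read 5′ to 3′ on the strand of the gene. Capitals mark GATAA and CCAAT, written as TTATC and ATTGG where the motif lies on the opposite strand. The window of pcl1 is chrII:165306-165555 on the minus strand, that of fep1 chrI:441971-442220 on the plus strand, that of php4 chrII:1916893-1917142 on the minus strand and that of php2 chrII:1227023-1227272 on the minus strand.
pcl1: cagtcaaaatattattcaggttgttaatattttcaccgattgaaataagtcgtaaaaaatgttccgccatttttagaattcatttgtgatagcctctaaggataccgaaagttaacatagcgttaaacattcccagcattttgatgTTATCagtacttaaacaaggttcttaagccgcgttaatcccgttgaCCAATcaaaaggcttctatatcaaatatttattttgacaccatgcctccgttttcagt
fep1: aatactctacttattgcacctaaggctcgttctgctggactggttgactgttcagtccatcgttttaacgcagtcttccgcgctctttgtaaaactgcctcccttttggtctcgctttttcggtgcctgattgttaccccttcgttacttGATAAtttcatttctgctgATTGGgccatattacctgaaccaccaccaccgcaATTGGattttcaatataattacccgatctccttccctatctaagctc
php4: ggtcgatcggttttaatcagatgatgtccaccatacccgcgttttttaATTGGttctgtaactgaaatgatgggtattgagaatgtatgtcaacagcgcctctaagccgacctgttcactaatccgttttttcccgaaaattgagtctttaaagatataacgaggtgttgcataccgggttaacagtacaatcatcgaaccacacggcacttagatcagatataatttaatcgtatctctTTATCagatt
php2: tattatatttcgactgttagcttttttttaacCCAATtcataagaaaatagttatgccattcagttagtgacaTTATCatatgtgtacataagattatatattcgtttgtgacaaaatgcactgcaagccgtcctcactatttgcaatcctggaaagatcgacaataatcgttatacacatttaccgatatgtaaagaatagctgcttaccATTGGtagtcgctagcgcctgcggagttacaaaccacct

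The pcl1 window held 1 GATAA, 104 bases before the gene start, and 1 CCAAT, 58 bases before it. The fep1 window held 1 GATAA at 100 bases and 2 CCAAT motifs at 81 and 47 bases. In the php4 window GATAA lay 10 bases and CCAAT 202 bases before the start. In the php2 window GATAA lay at 177 bases and CCAAT at 218 and 39 bases. All of these letters are common: on either strand GATAA occurred in 55.07% and CCAAT in 34.81% of 3321 windows of the same length before protein-coding genes. Among the other members, aco1 held 3 GATAA and 1 CCAAT, php3 held 2 of each, sdh4 held 2 CCAAT and no GATAA, and isa1 held 1 CCAAT and no GATAA in the 221 bases that separate it from its neighbour. Neither motif occurred in the window of php5 or in the 184 bases before atm1. A match is a description of the letters and not a bound site. The positions of the array's own amplicons were not given in the sources used here, so these windows need not coincide with the upstream features.

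The value reported for a feature is the log2 ratio of the channel taken as precipitate to the channel taken as input, centred on the median of its array. Channel B was taken as precipitate on slides 1 and 2 and channel A on slide 10. This direction is open to doubt. Per the labels the precipitate carried Cy5 and the input Cy3 without a dye swap, but the file headers tie neither dye to a channel. When B was divided by A everywhere, slide 10 correlated across 3960 features at -0.48 with slide 1 and at -0.54 with slide 2, against 0.72 between slides 1 and 2. Calls, means and shares of the 10 genes are therefore also given with B divided by A on every slide, called the uniform orientation here, and the sign of all ratios could be turned as a whole. Feature spots with signal in both channels made up 49.0% on slide 1, 37.7% on slide 2 and 95.5% on slide 10. Over the 3960 features with a ratio on all 3 slides, the limma test of the mean against 0 with Benjamini-Hochberg adjustment called 327 enriched and 222 depleted at an adjusted p under 0.05. In the uniform orientation it called 0 in either direction, with 138 features at an unadjusted p under 0.05.

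Of the 10 upstream features of the iron genes, only that of pcl1 was enriched. The upstream features of fep1, php4 and php2 lay above 0 on every slide but did not pass the test, and the other 6 were left out of this test because slide 1, slide 2 or both gave no ratio. Among the coding features that of php3 was depleted, and none was enriched, against 2.43% of all coding features tested. Of the 4 upstream features tested 1 was thus called enriched, against 19.7% of all 1327 intergenic features tested, and of the 8 coding features tested 1 was called depleted, against 7.86% of 2597. The 4 tested upstream features were positive on all 3 slides, as were 48% of all tested intergenic features, and 0 were negative on all 3, against 9.95%. Of the coding features 0 of 8 were positive on all 3, against 12.9%, and 3 of the 8 tested coding features were negative on all 3, as were 34.7% of all tested coding features. These tallies rest on the direction of slide 10. Turned to the uniform orientation, 0 of the 4 upstream features were positive and 0 negative on all 3 slides, against 12.5% and 9.19% of intergenic features. Of the 8 coding features that of aco1 then was positive on all 3, against 8.97%, and those of php4 and php2 were negative, against 19.2%. Over all features tested, 8.26% were called enriched and 5.61% depleted. The medians of all tested features were 0.36 for intergenic and -0.28 for coding features, so a positive ratio upstream and a negative one in a coding sequence was the usual state.

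**Figure D1:**
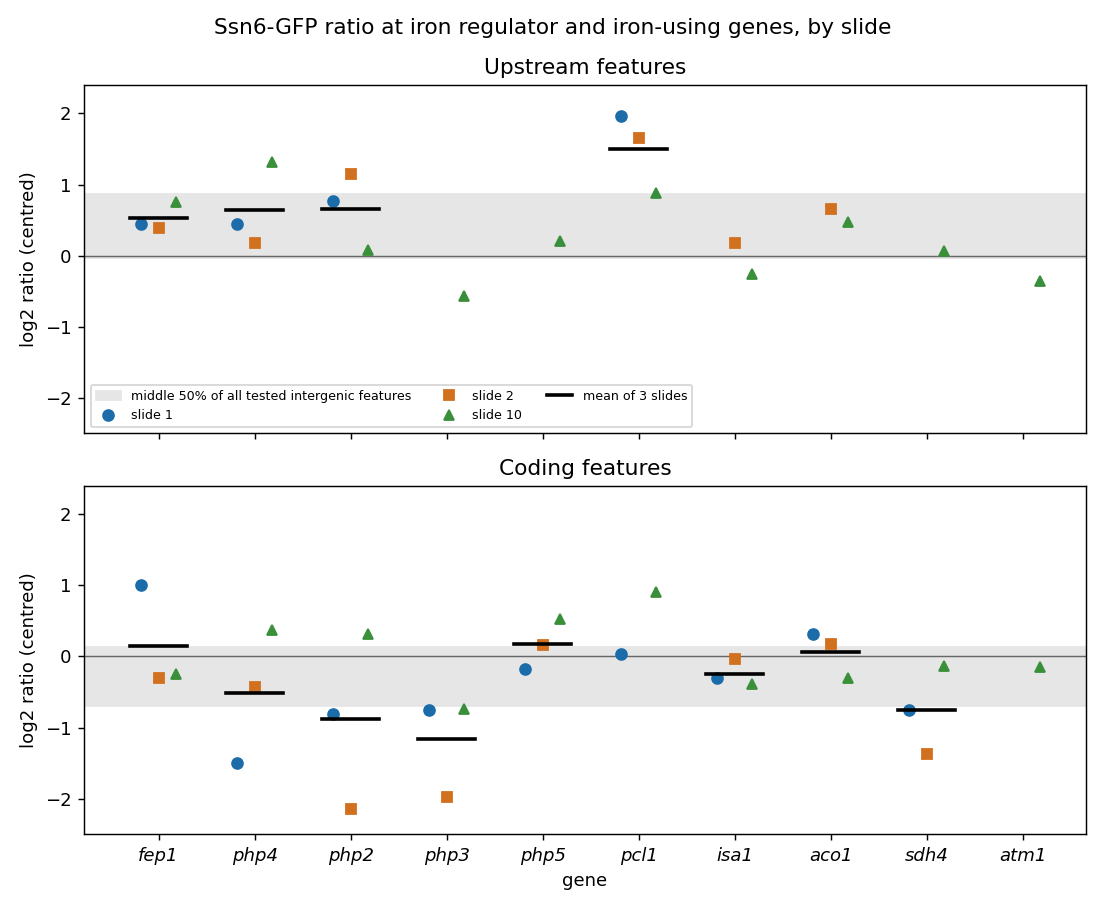
Centred log2 ratio of each upstream (top) and coding (bottom) feature of the 10 genes on slides 1, 2 and 10. Bars give the mean where all 3 slides gave a ratio. The grey band is the middle 50% of the means of 3 slides of all tested features of that kind. The pcl1 upstream mean of 1.50 lies above the band, and 6 upstream features have no value on slide 1.

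pcl1 encodes a transporter that moves iron into the vacuole, and lies at chrII:163534-165305 on the minus strand. Its upstream feature had log2 ratios of 1.96 on slide 1, 1.65 on slide 2 and 0.88 on slide 10. All 3 slides were high, and slide 10 was the lowest of them. The mean was 1.50 ± 0.56 (SD, n = 3), a 2.83-fold ratio, with an adjusted p of 0.0144 in limma. Within the slides the feature ranked at percentiles 97.1, 94.8 and 88.9. By the rank rule that the labels describe, which lists a feature when its median percentile over the arrays exceeds 85, it was the 1 listed feature among the 20, against 11.1% of all 9856 features with a ratio and 17% of the intergenic ones. None of the 10 coding features was listed, against 5.17%. In the uniform orientation the slide 10 value became -0.88, the mean 0.91 ± 1.56 (SD, n = 3) and the adjusted p 0.782 in limma, while the median percentile stayed at 94.8. The list then held 2 of the 20 features, the upstream features of pcl1 and php3, against 9.98% of all features.

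The pcl1 upstream value rested on few spots. On slide 1 its pair of spots read 2306 and 1677 mean pixel intensity units in the precipitate channel, but only the first had an accepted input signal, of 329 units. On slide 2 the spots read 3735 and 3637 units, and again only 1 had an input signal, of 777 units. On slide 10 both spots gave both channels, with log2 ratios of 0.84 and 0.93. The 2 slides that rested on 1 spot each were thus the 2 with the higher ratios, and the part of the lost spots in that order was not tested. Without slide 1 the mean was 1.27 with an adjusted p of 0.0856 in limma, without slide 2 it was 1.42 with 0.0994, and without slide 10 it was 1.81 with 0.0151.

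The coding feature of pcl1 gave 0.03 on slide 1, no ratio on slide 2 and 0.90 on slide 10. On slide 10 upstream and coding features therefore stood at the same height, whereas on slide 1 the upstream feature was higher by 1.93. When features on 2 or more slides were tested, the coding mean of 0.47 had an adjusted p of 0.551 in limma, and the difference of 0.96 between upstream and coding features had 0.360.

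pcl1 lies between genes whose upstream features were also high. Its neighbour on the upstream side, icl1, for isocitrate lyase, is transcribed in the same direction, and the 2 coding sequences are 1633 bases apart. The icl1 upstream feature read 2.19 on slide 1, 1.85 on slide 2 and 2.54 on slide 10, with an adjusted p of 0.00179 in limma, and was above that of pcl1 on every slide. On the other side lies frp1, a ferric reductase of the cell surface, whose upstream feature read 3.34 on slide 1 and 2.38 on slide 10. The gene beyond icl1, SPBC1683.12, had an upstream mean of 1.39 with an adjusted p of 0.0140 in limma. The coding features in between were lower, at 0.86 and 0.73 for icl1 on slides 1 and 10, while that of frp1 read 1.10 and 1.69 on slides 2 and 10. With slide 10 turned, the upstream means were 0.50 for icl1 and 0.26 for SPBC1683.12, and neither was called. How far sonicated fragments from one region add to the ratio of the next was not tested.

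**Figure D2:**
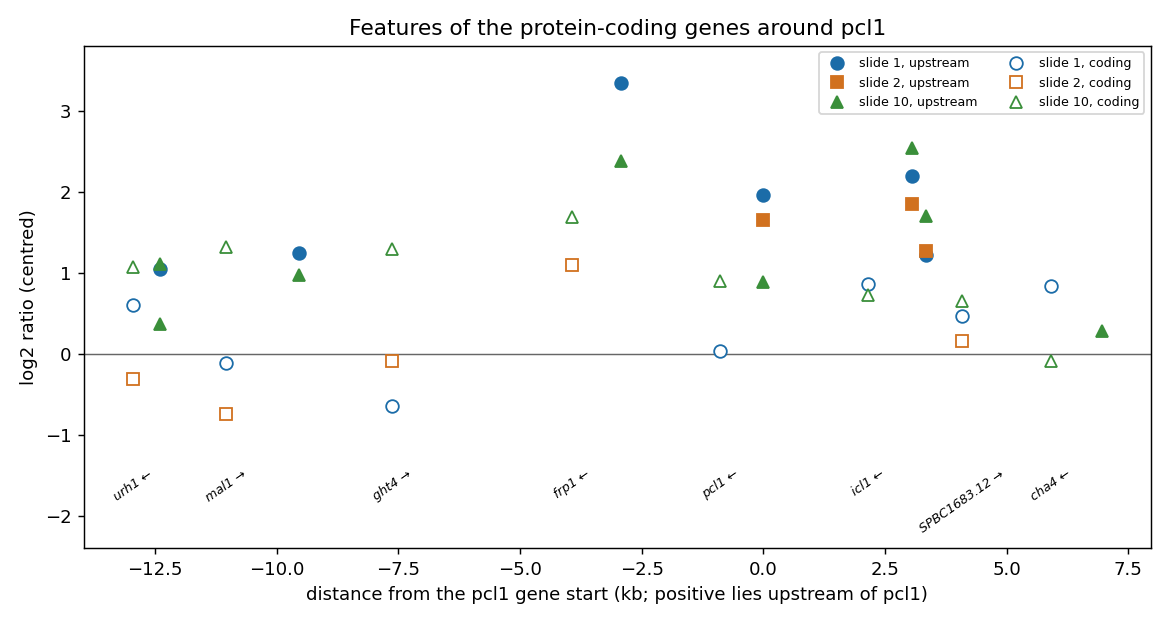
Centred log2 ratio of upstream (filled) and coding (open) features of the protein-coding genes around pcl1, against distance in kb from the pcl1 gene start, with positive distances upstream of pcl1; upstream features are placed at the gene start and coding features at the middle of the gene, and arrows give the direction of transcription. The upstream features of frp1 and icl1 stand at 2.38 and 2.54 on slide 10, above the 0.88 of pcl1.

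Of the regulators, fep1, at chrI:442221-445721 on the plus strand, encodes the iron-sensing repressor. Its upstream feature read 0.45 on slide 1, 0.40 on slide 2 and 0.76 on slide 10. The 3 slides lay close together and above 0. The mean of 0.53 ± 0.20 (SD, n = 3) had an adjusted p of 0.231 in limma, and the median percentile was 63.5. Its mean in the uniform orientation was 0.03. Its coding feature read 1.01 on slide 1, -0.30 on slide 2 and -0.25 on slide 10, so that slide 1 alone was high, and on that slide the spots of the pair read -0.06 and 2.08. The coding mean of 0.15 ± 0.74 (SD, n = 3) had an adjusted p of 0.792 in limma, and was 0.32 with slide 10 turned.

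php4, at chrII:1915375-1916892 on the minus strand, encodes the subunit that turns the CCAAT-binding complex into a repressor. Its upstream feature read 0.45 on slide 1, 0.18 on slide 2 and 1.31 on slide 10, where it stood at percentile 94.0, the highest upstream value of the 10 genes on that slide. Slides 1 and 2 lay inside the middle range of intergenic features. The mean of 0.65 ± 0.59 (SD, n = 3) had an adjusted p of 0.194 in limma, and turned to -0.23 in the uniform orientation. The coding feature read -1.49 on slide 1, -0.43 on slide 2 and 0.37 on slide 10, with opposite signs on slides 1 and 10. The mean of -0.52 ± 0.93 (SD, n = 3) had an adjusted p of 0.373 in limma, and was -0.76 with slide 10 turned.

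php2, php3 and php5 encode the DNA-binding core of the CCAAT complex. The php2 upstream feature read 0.76 on slide 1, 1.14 on slide 2, where 1 of its 2 spots gave a ratio, and 0.08 on slide 10. Slide 1 lay inside the same range of intergenic means of 3 slides, slide 2 lay above it and slide 10 was near 0. The mean of 0.66 ± 0.54 (SD, n = 3) had an adjusted p of 0.179 in limma and was 0.61 in the uniform orientation. The coding feature read -0.81 on slide 1, -2.15 on slide 2 and 0.32 on slide 10, so that slide 10 had the opposite sign. Its mean of -0.88 ± 1.23 (SD, n = 3) had an adjusted p of 0.182 in limma, and was -1.09 with slide 10 turned. It was -0.92 without slide 1, with an adjusted p of 0.341 in limma, -0.25 without slide 2, with 0.855, and -1.48 without slide 10, with 0.0415.

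The php3 gene lies at chrI:2145681-2146388 on the plus strand. Its coding feature read -0.76 on slide 1, -1.97 on slide 2 and -0.74 on slide 10. All 3 slides were low, and slide 2 was the lowest. The mean was -1.16 ± 0.71 (SD, n = 3), a ratio of 0.448, and the adjusted p of 0.0478 in limma lay just under the threshold. Its median percentile was 7.24. With slide 10 turned to 0.74, the mean became -0.67 and the adjusted p 0.811. The adjusted p was 0.0694 without slide 1 and 0.428 without slide 2. Upstream of php3 slide 10 alone gave a ratio, of -0.57 at percentile 13.2, because all 4 input spots on slides 1 and 2 were rejected.

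php5 read 0.20 upstream on slide 10, and had no ratio there on slides 1 and 2. Its coding feature read -0.18 on slide 1, 0.16 on slide 2 and 0.52 on slide 10, around 0 with no common sign. The mean of 0.17 ± 0.35 (SD, n = 3) had an adjusted p of 0.737 in limma, and was -0.18 with slide 10 turned.

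The genes that use or move iron in mitochondria had upstream ratios on 1 or 2 slides each. isa1 encodes an iron-sulfur cluster assembly factor, and its upstream feature read 0.18 on slide 2 and -0.25 on slide 10. aco1 encodes aconitase, an iron-sulfur enzyme of the citrate cycle, and its upstream feature read 0.65 on slide 2 and 0.47 on slide 10, at percentiles 73.5 and 78.1. These 2 genes had no upstream ratio on slide 1, and when features on 2 or more slides were tested their adjusted p was 0.967 and 0.440 in limma. For sdh4, a membrane anchor of succinate dehydrogenase, and atm1, a mitochondrial ABC transporter, only slide 10 gave an upstream ratio, of 0.07 and -0.35.

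None of the coding features of these genes passed the test. The sdh4 coding feature read -0.75 on slide 1, -1.37 on slide 2 and -0.14 on slide 10, negative on every slide, with a mean of -0.75 ± 0.61 (SD, n = 3) and an adjusted p of 0.141 in limma. The isa1 coding feature read -0.31, -0.04 and -0.39 on slides 1, 2 and 10, a mean of -0.25 ± 0.18 (SD, n = 3) with an adjusted p of 0.590 in limma. The aco1 coding feature read 0.31, 0.18 and -0.30, a mean of 0.06 ± 0.32 (SD, n = 3) with an adjusted p of 0.897 in limma. With slide 10 turned, the coding means were -0.66 for sdh4, 0.015 for isa1 and 0.26 for aco1, and none passed the test. The atm1 coding feature had a ratio only on slide 10, of -0.15.

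Slide 10 measured every upstream feature and allows the 10 to be set side by side. There php4 was highest at 1.31, followed by pcl1 at 0.88, fep1 at 0.76, aco1 at 0.47 and php5 at 0.20. php2 and sdh4 stood near 0, and isa1, atm1 and php3 were negative. In all, 7 of 10 upstream features were positive, against 55.3% of 4908 intergenic features on that slide, with a median of 0.14 against 0.07. Of the coding features 4 of 10 were positive, against 43.5% of 4850, with a median of -0.15 against -0.08. In the uniform orientation each of these slide 10 values changes sign.

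Upstream ratios were lost on slides 1 and 2, while slide 10 kept all of them. Of the 20 upstream spots, 7 on slide 1, 9 on slide 2 and 20 on slide 10 had both channels, and a further 6 on slide 1 and 6 on slide 2 had a precipitate signal beside a rejected input. The coding spots kept both channels at 18, 15 and 20 of 20. Over the whole array 25.7% of intergenic and 52.4% of coding features had a ratio on all 3 slides. Precipitate signals were also set against the negative-control spots. The limit, the 95th percentile of 1624 such spots, stood at 1959, 4452 and 222.7 mean pixel intensity units on slides 1, 2 and 10. On all 3 slides 0 of the 20 features lay above it. Of the 12 with a ratio on all 3 slides this was thus 0, against 11.3% of the 3960 features tested. On slide 10 every tested feature exceeded it, so that slides 1 and 2 set this count. The pcl1 upstream feature, with a mean of 1992, 3686 and 1999.5 units, exceeded the limit on slides 1 and 10 but not on slide 2.

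**Figure D3:**
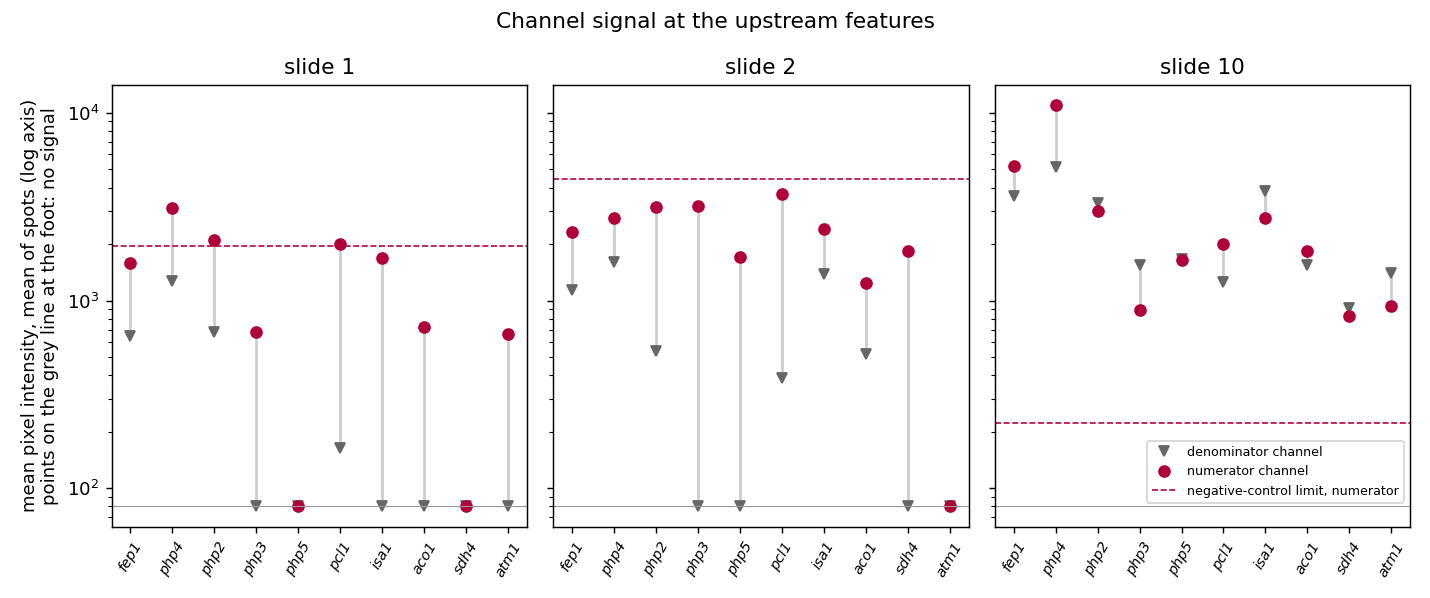
Mean pixel intensity of the channel taken as precipitate (circles) and as input (triangles) at the 10 upstream features on each slide, on a log axis and averaged over the spot pair with a rejected spot entering as 0; the dashed line is the negative-control limit of the precipitate channel. On slides 1 and 2 the input points of several genes sit at the foot of the axis, where no signal was accepted, and on slide 10 all 10 features have both channels.

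Upstream and coding features of the same gene were then compared on each slide, which the 3 slides allow for 640 genes. Across these genes the upstream feature was higher by a median of 0.64, and limma called 29.1% above 0 and 1.25% below 0. In the uniform orientation that median was 0.39 and limma called 0 of the 640 genes. Among the iron genes 3 could be tested, and 2 of these, php4 and php2, were called above 0. At php4 the difference was 1.94 on slide 1, 0.61 on slide 2 and 0.94 on slide 10, positive on every slide as at 49.7% of the 640 genes, with a mean of 1.17 ± 0.69 (SD, n = 3) and an adjusted p of 0.0435 in limma. At php2 it was 1.57 on slide 1, 3.29 on slide 2 and -0.24 on slide 10, where the sign turned. The php2 mean of 1.54 ± 1.76 (SD, n = 3) had an adjusted p of 0.0129 in limma, which draws its spread in part from all genes, while its own SD exceeded the mean. At fep1 the difference was -0.56, 0.70 and 1.01, with a mean of 0.38 ± 0.83 (SD, n = 3) and an adjusted p of 0.549 in limma.

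An exact two-sided sign-flip permutation test over the 3 slides cannot go below 0.25; it gave 0.25 for php4, 0.5 for php2 and 0.5 for fep1. In the uniform orientation the mean difference was 0.54 at php4, 1.70 at php2 and -0.29 at fep1, and none of the 3 was called. At php4 the mean was 0.78 without slide 1, with an adjusted p of 0.459 in limma, 1.44 without slide 2, with 0.186, and 1.28 without slide 10, with 0.0359. At php2 it was 1.53 without slide 1, with 0.328, 0.67 without slide 2, with 0.606, and 2.43 without slide 10, with 2.9e-05. Both calls were thus lost without slide 1 and without slide 2. This was not particular to php4 and php2: over all genes 0 of 886 were called without slide 1, and 75 of 1345 without slide 2. On the 2 slides each that measured both features, isa1 differed by 0.22 and 0.14 and aco1 by 0.47 and 0.76, and neither was called when genes with 2 or more slides were tested (adjusted p 0.874 and 0.521 in limma).

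**Figure D4:**
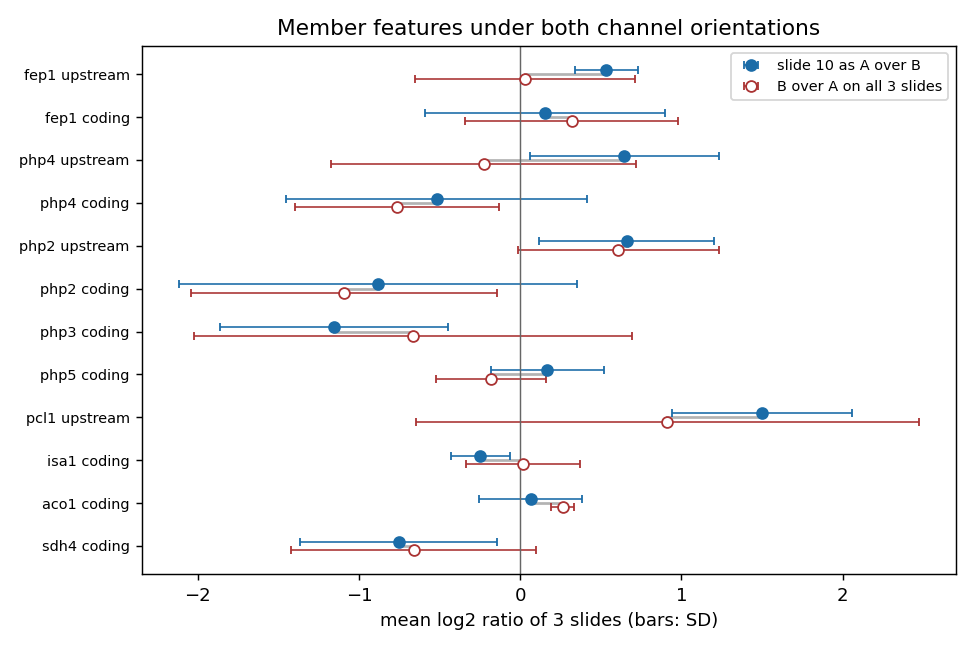
Mean log2 ratio of the 12 tested features under the orientation used here (filled) and in the uniform orientation (open), with bars for the SD of 3 slides. The pcl1 upstream mean moves from 1.50 to 0.91 while its SD grows from 0.56 to 1.56, and the php4 upstream mean crosses 0.

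Some of the iron genes share an upstream gap with a neighbour transcribed away from it, and the neighbour then has an upstream feature of its own. For php2 and nbl1 this second feature read 1.40 on slide 1 and 0.56 on slide 10, so that both features of the gap were positive on these slides. For sdh4 and qcr1, a subunit of the respiratory chain, it read 1.07 on slide 1 and 0.44 on slide 10, above the 0.07 of sdh4 on slide 10. For isa1 and nse3 it was -0.42 on slide 10, for atm1 and spc34 -0.56, and for php5 and arh1, an adrenodoxin reductase of iron-sulfur assembly, 0.35; these 3 had the sign of the member on that slide.

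Other genes of iron biology were counted from lists of named genes. The lists were chosen with earlier results of these data known, so their counts beside the shares of all features are descriptive only. The iron-acquisition list holds 12 genes, among them those of the iron permease, ferric reductases and transporters of siderophores and haem. It was drawn up by gene symbol, and the part of each product, such as that of hmt1, in iron uptake was not tested. Of its upstream features 9 were tested and 9 were enriched, against the 19.7% of intergenic features. Their median was 2.70, and on slide 10 all 12 lay between 1.22 and 3.78. The highest were str3, a siderophore transporter, with 2.83, 2.92 and 3.78 on slides 1, 2 and 10 and an adjusted p of 0.000786 in limma, and fip1, the permease, with 2.55, 2.74 and 3.49. The other enriched upstream features had means of 2.83 for abc3, 2.74 for fio1, 2.70 for shu1, 1.77 for sib2, 1.75 for str2, 1.72 for hmt1 and 1.46 for str1. By the rank rule 12 of the 12 were listed, against the 17% of intergenic features, and 7 in the uniform orientation. On slide 10 the iron-acquisition median was 2.67, and the php4 value of 1.31, the highest of the 10 genes, lay just above the lowest of that list. Of the coding features of these genes, 4 of the 6 tested were enriched, against 2.43% of all coding features tested. The 4 means were 2.38 for fip1, 1.77 for shu1, 1.60 for fio1 and 1.05 for abc3, the last at an adjusted p of 0.0499 in limma.

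Genes of the pathways that isa1, aco1 and sdh4 serve gave no calls in limma, but some stood on the rank list. Of 12 citrate-cycle genes 0 of 3 tested upstream and 0 of 8 tested coding features were called in limma, and their upstream median on slide 10 was 0.81, with lsc1 highest at 1.69 there. The rank rule also takes features on 1 or 2 slides. It listed 7 of the 12 citrate-cycle upstream features, against the 17% of intergenic features, and 1 of 12 coding features. Of those 7, lsc1, sdh2, sdh3, fum1 and mdh1 had a ratio on slide 10 alone, and idh2 and lsc2 on 2 slides each. The 3 tested upstream features, those of cit1, kgd1 and kgd2, were not listed. The highest means were those of lsc1, from slide 10 alone, and of idh2, with 1.92 on slide 1 and 1.31 on slide 10. None of these 12 upstream features was listed in the uniform orientation. None of the iron-sulfur cluster assembly genes had an upstream ratio on all 3 slides. The 8 upstream features of that list had a slide 10 median of -0.10 and lay between -1.03 and 0.35, a range that holds isa1 at -0.25 and atm1 at -0.35. The highest were arh1 at 0.35 and etp1 at 0.30. The rank rule listed 0 of these 8, and 2 in the uniform orientation. Of 3 coding features tested 0 were called.

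The list called other iron-using proteins was drawn up by gene symbol, and iron use by each product was not tested. Of its upstream features 2 were tested and both were enriched, against the 19.7% of intergenic features. cyc1, for cytochrome c, read 1.26, 1.93 and 1.81 on slides 1, 2 and 10, with a mean of 1.66 and an adjusted p of 0.00676 in limma. hem15, for ferrochelatase, which inserts iron into haem, read 1.45, 1.42 and 1.02, with a mean of 1.30 and an adjusted p of 0.0178. leu2, which had no ratio on slide 2 and was not tested, read 2.10 on slide 1 and 1.17 on slide 10. Its mean of 1.64 lay between those of cyc1 and hem15. The rank rule listed 6 of the 12 upstream features, against the 17% of intergenic features, and 2 in the uniform orientation. Of those 6, rli1 had a ratio on slide 10 alone, and lys4, leu2 and cta1 had ratios on 2 slides each. Of the coding features of that list 0 of 9 were called. Among the partners of Fep1, Php4 and Ssn6 the glutaredoxin gene grx4 had the 1 upstream feature tested, with a mean of 0.87 and an adjusted p of 0.0877 in limma, and 0 of 3 coding features were called. The upstream feature of ssn6 itself read 1.00 on slide 10. None of the features of any list was called in the uniform orientation.

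**Figure D5:**
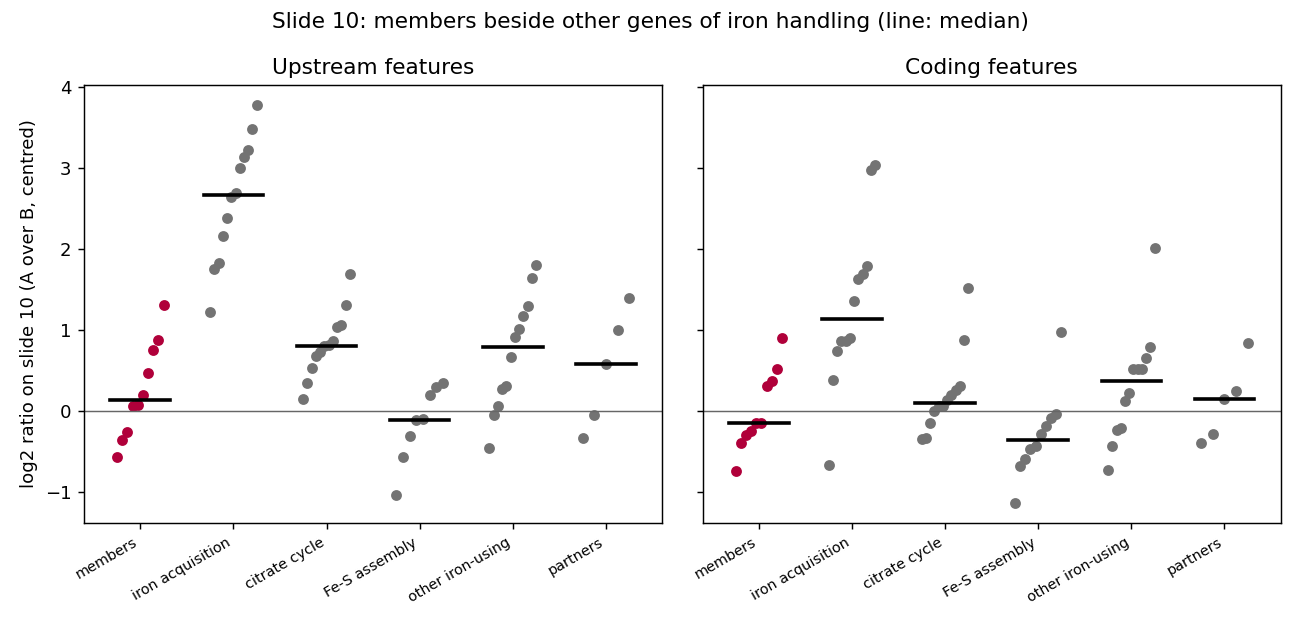
Centred log2 ratio on slide 10, with channel A over channel B, of the upstream (left) and coding (right) features of the 10 genes beside the other lists of iron genes, 1 point per feature and a line at each median. The upstream median of the 10 genes is 0.14, against 2.67 for iron acquisition and -0.10 for iron-sulfur cluster assembly.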

How the data were processed

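Chromatin immunoprecipitated through Ssn6-GFP was measured on 3 two-colour arrays of 1 group. Per the labels' protocols and the file headers, the authors quantified 22176 spots per array with TIGR Spotfinder, and the deposited files give the intensity of channels A and B as integrated and mean pixel values. The authors' series table holds log10 values, median-normalised in GeneSpring per the labels. These tracked channel B on slides 1 and 2 (r = 0.998 and 0.999 across spots) and channel A on slide 10 (0.949, against 0.668 for channel B), so they are not ratios. Their column medians were 0.01, 0.02 and -0.04 on slides 1, 2 and 10, and they served as an alternative only.

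Log2 ratios were formed from integrated intensity without background subtraction, leaving out spots with a rejected channel, then centred on the array's median and averaged over each feature's spots. limma 3.58.1, run in R 4.3.3, tested features with a ratio on all 3 slides against 0 (two-sided, Benjamini-Hochberg over 3960 features), and the upstream minus coding difference over 640 genes. The limma fit was tested on simulated log2 ratios without missing values. That simulation did not cover the forming of ratios, their orientation, rejected spots or the rank rule. The number of arrays limits the precision.

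All features of the 10 genes are reported; other genes appear as counts over fixed lists, with values for called genes and the 2 highest upstream features of each list by mean, and as neighbours. Neighbours were added after their values were seen. The members and the lists were chosen with earlier results of these data known. The listed ssq1, erg11 and tup12 were not matched to a feature, and cta1 and ctt1 share theirs. Alternatives were the orientation, background, normalisation, centring, spot value, filters, deposited values and each slide left out.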

Additional observations from a re-analysis of the deposited data

How the results depend on the processing

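The number of arrays, the rejected spots of slides 1 and 2 and the unsettled orientation limit these results. A filter on features whose precipitate signal exceeded the negative-control limit on all 3 slides left none of the 20 features, so it gave no values. The arrays form 1 group, so no pairing of arrays between groups was possible. The comparison of upstream and coding features was paired within each slide. Of the log2 ratios of single features under these alternatives, 96 of features without a call kept their direction and stayed uncalled. A further 13 had the opposite sign and 1 became called. For the called features, 9 values kept the call, 12 kept the direction but lost the call, and 1, from the deposited values, had the opposite sign.

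The pcl1 upstream feature passed the limma test under background subtraction, normexp, loess, separate centring of intergenic and coding features (1.14, adjusted p 0.0300), median pixel values and features on 2 or more slides. It did not with channel B over A on all slides (0.91) or with the deposited values (0.46), and the range over each slide left out was 1.27 to 1.81. The deposited values are not ratios, so no result from them, here or below, is a check on a ratio. The enriched count was 0 with channel B over A and with the deposited values, and 0 to 1 with each slide left out. The php3 coding feature missed the threshold with channel B over A (-0.67), background subtraction (-1.33), normexp (-1.59), loess (-0.86), separate centring (-0.94) and features on 2 or more slides (-1.16). With the deposited values it read 0.066 and was not called. Its range with each slide left out was -1.37 to -0.75. In each of these 7 settings the depleted count was 0, and with each slide left out it was 0 to 2, the 2 being php2 and php3 without slide 10. The count listed above the percentile threshold was 2 with channel B over A, normexp and loess, 4 with the deposited values and 1 to 2 with a slide left out. The count of genes whose upstream and coding features differed, 2, became 0 with channel B over A, background subtraction, loess, separate centring, features on 2 or more slides and the deposited values, 1 with normexp and median pixel values, and 0 to 2 with a slide left out.

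Values that were not called and changed sign follow, and the cause was not tested. With channel B over A php4 upstream became -0.23, php5 coding -0.18, isa1 coding 0.015 and the fep1 difference -0.29. With loess php5 coding became -0.028, aco1 coding -0.062 and the fep1 difference -0.24, with normexp php5 coding -0.057, and with separate centring the fep1 difference -0.19. The deposited values follow 1 channel and are not ratios, so a different sign in them is not a ratio that turned. Their sign differed for php4 coding (0.75), php2 coding (1.38), aco1 coding (-0.0055) and sdh4 coding (0.28). It also differed for the fep1 difference (-0.23) and the php2 difference (-0.71). With each slide left out in turn fep1 coding ranged from -0.28 to 0.38, aco1 coding from -0.058 to 0.25 and php5 coding from -0.0099 to 0.34.

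Over all features, the number tested differed between settings. The 327 enriched of 3960 became 135 of 3861 with background subtraction and 209 of 5775 without slide 2. They were 223 of 447 under the negative-control filter and 54 of 7198 with the deposited values. The 222 depleted of 3960 became 7 of 3861 with background subtraction, 363 of 3960 with median pixel values and 13 of 447 under the filter. They were 58 of 4535 without slide 1, 9 of 5775 without slide 2 and 548 of 3961 without slide 10. With the deposited values they were 0 of 7198. The 194 of 640 genes with a called difference became 82 of 609 with background subtraction, 81 of 640 with loess and 104 of 640 with separate centring. They were 86 of 1591 with 2 or more slides, 15 of 32 under the filter and 75 of 1345 without slide 2. Without slide 1 they were 0 of 886, and with the deposited values 0 of 2368.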

Other observations

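A separate coding feature named php5+ stands on the array beside php5, and how it relates to the php5 gene is not stated in the sources used here. It read -0.98 on slide 1, -1.23 on slide 2 and -0.57 on slide 10, low on every slide, where php5 itself read -0.18, 0.16 and 0.52. Its mean of -0.93 ± 0.33 (SD, n = 3) had an adjusted p of 0.0632 in limma, and the mean was -0.55 in the uniform orientation.

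The coding feature of nse3, the divergent neighbour of isa1 and a subunit of the Smc5-Smc6 complex, read -0.99, -1.35 and -0.82 on slides 1, 2 and 10. Its mean of -1.05 had an adjusted p of 0.0406 in limma, below the isa1 coding values on every slide. The upstream feature of mre11, the tandem neighbour of fep1 that the array names rad32, read 0.94, 0.47 and 1.07, above the fep1 upstream feature on every slide, with a mean of 0.83 and an adjusted p of 0.0881 in limma. With slide 10 turned these means were -0.50 for nse3 and 0.11 for mre11, and neither was called.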
